A study of Mus musculus with 28 samples.

Results

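The mitochondrial respiratory chain is built from genes of both the nucleus and the mitochondrial genome, and 117 of them were followed here over 7 ages of the mouse dorsal lateral geniculate nucleus, the thalamic relay of vision. Members were taken by symbol from the deposited count tables: nuclear symbols that begin with Ndufa, Ndufb, Ndufs, Ndufv, Cox4 to Cox8, Uqcr or Atp5, the genes Sdha to Sdhd, and every symbol with the mitochondrial prefix mt-. This gave 117 of 26581 genes, 89 nuclear and 28 mitochondrially encoded. By function the nuclear members were 34 subunits of complex I, 7 complex I assembly factors (Ndufaf1 to Ndufaf7), 4 subunits of complex II, 8 of complex III, 17 of complex IV (with Ndufa4, now placed there), 15 of complex V and 4 related genes that are not core subunits (Ndufa4l2, Cox7a2l, Atp5s and Atp5sl). The mitochondrially encoded members were 7 mRNA genes, 2 rRNA genes and 19 tRNA genes.

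Complexes I and II pass electrons from NADH and succinate to ubiquinone, complex III passes them to cytochrome c and complex IV to oxygen. Complexes I, III and IV pump protons while they do so, and complex V, the ATP synthase, uses the gradient to make ATP. All complexes except complex II combine nuclear subunits with mitochondrially encoded ones, and neurons rely on the chain to restore the ion gradients that synaptic and action potentials run down.

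The tissue came from wild-type C57BL/6J mice of both sexes kept in standard housing, with no treatment, at embryonic day 18 (E18) and postnatal days 4, 10, 16, 20, 27 and 32 (P4 to P32). At each age 4 mice gave 4 separate libraries, 28 in all, from total RNA of the microdissected nucleus after ribosomal RNA depletion. The nucleus was cut as whole tissue, so neurons, glia and vessels were measured together, and fewer cells of a type cannot be told apart from less RNA per cell. Each library is called by its age and its column number in the count tables (3 to 6), since those numbers could not be matched to the labels' replicate numbers.

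Libraries held 8224851 to 40206549 reads assigned to genes, with a median of 21112344.5. Levels are given as CPM, read counts normalised to library size after adjustment of the sizes by the trimmed mean of M values over all 28 libraries, and as CPM per kilobase of the deposited gene length where genes are compared with each other. A value with ± is the mean and SD of the 4 libraries of an age. The nuclear members took 0.376% to 1.013% of a library's reads and the mitochondrially encoded members 1.373% to 21.809%. P27 library 6 stood apart with 16938 genes with a read and the highest mitochondrial share. Summed markers of other cell types moved with age: oligodendrocyte markers (6 of 6 genes listed) went from 123 to 133.5 CPM at E18 to 20210 to 31530 CPM at P32, astrocyte markers (5 of 6) from 256.5 to 398.1 to 3125 to 3869 CPM, and immature neuron markers (5 of 5) from 5156 to 6287 down to 531.5 to 819 CPM. Relay neuron markers (7 of 7) ranged from 1142 to 1891 CPM at E18 and from 1254 to 5587 CPM at P32, choroid plexus markers (4 of 4) from 133.9 to 977 CPM and from 3.955 to 20.52 CPM, and no marker listed was at 0 at every age. Members of these 2 lists did not move alike. Of the 7 relay markers Prkcd and Rora rose (log2 fold changes 6.41 and 2.67) and Tcf7l2 and Gbx2 fell (-1.525 and -1.73). In the choroid plexus list 3 of 4 fell, with mean Ttr going from 387.3 to 4.228 CPM, while Kl went from 1.787 to 4.284 CPM. The part of these shifts in the results below was not tested.

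Promoters of 5 members are printed first: Sdha, which rose in complex II, with its partner Sdhb, which did not pass; Cox6b2 and Atp5e, which fell in complexes IV and V; and Cox6a1, the common isoform beside Cox6a2, which rose and has no window in the table. Each sequence is the RefSeq window of GRCm38.p6 from 250 bases before to 50 bases after the gene's start, 5′ to 3′ on the gene's strand. Capitals mark matches to motifs of factors known to act on nuclear respiratory genes: 2 copies of GCGC with NT between them (N is any base) for NRF1, CCGGAAG for ETS factors such as GABP, ATGGCGGC for YY1 and AAGGTCA for ERR, searched on both strands. The windows are Sdha at chr13:74350191-74350490 (minus strand), Sdhb at chr4:140961021-140961320 (plus strand), Cox6a1 at chr5:115348909-115349208, Cox6b2 at chr7:4753045-4753344 and Atp5e at chr2:174464052-174464351 (all 3 on the minus strand).
Sdha: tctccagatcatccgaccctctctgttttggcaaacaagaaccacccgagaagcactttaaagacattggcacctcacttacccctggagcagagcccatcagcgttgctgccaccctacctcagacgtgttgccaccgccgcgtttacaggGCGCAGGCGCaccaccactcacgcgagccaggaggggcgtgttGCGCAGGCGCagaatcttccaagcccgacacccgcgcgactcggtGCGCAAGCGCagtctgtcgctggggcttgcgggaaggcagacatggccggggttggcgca
Sdhb: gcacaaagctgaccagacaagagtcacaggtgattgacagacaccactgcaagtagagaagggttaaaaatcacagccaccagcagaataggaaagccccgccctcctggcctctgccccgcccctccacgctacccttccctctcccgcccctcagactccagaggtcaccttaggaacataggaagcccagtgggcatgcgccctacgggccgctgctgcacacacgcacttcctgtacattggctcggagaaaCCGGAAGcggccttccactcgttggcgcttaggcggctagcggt
Cox6a1: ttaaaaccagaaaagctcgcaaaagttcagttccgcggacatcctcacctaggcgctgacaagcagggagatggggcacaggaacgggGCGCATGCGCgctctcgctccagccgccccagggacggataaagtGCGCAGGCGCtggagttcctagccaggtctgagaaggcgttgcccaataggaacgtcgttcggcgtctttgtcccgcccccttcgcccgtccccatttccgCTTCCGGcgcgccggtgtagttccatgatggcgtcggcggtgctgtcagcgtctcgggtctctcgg
Cox6b2: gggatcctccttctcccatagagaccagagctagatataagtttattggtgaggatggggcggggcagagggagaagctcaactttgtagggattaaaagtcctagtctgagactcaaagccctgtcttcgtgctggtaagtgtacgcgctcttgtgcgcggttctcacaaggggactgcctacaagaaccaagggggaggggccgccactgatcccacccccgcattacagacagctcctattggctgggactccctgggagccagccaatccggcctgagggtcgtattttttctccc
Atp5e: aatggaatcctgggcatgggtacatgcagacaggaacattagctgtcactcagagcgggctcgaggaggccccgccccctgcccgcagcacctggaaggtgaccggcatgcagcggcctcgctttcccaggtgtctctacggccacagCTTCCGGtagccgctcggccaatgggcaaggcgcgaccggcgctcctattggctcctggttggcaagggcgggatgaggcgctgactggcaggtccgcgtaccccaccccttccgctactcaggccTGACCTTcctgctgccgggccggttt

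Sdha carried 3 NRF1 matches, Cox6a1 carried 2 and 1 ETS match, Sdhb carried 1 ETS match, Atp5e carried 1 ETS and 1 ERR match, and the Cox6b2 window held none of the 4 motifs. Windows were at hand for 74 of the 89 nuclear members, and 18 of these (24.3%) held the NRF1 motif against 4.78% of all 27025 windows. The ETS motif was in 21.6% of the members' windows against 9.12%, the YY1 motif in 9.46% against 2.38% and the ERR motif in 10.8% against 4.66%. The median share of G and C was 57.8% in the members' windows and 52.7% in all windows. These are matches of letters and not measured binding, and a window without a match says nothing about the factor.

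Summed over the 78 nuclear subunits of complexes I to V, the mean level stayed between 5326 and 6676 CPM over the 7 ages. The sum was 5624 ± 2334 CPM at E18, 5898 ± 1924 at P4, 5326 ± 1232 at P10, 6389 ± 1993 at P16, 5531 ± 1894 at P20, 6676 ± 1958 at P27 and 6206 ± 1411 at P32 (SD, n = 4 each). The ages overlapped throughout. At E18 the 4 libraries read 4035, 9013, 4127 and 5322 CPM in column order, and at P32 they read 4227, 7222, 7218 and 6156 CPM. Library 4 was the highest at E18 and library 3 the lowest at both ages. Between libraries of the same column number, which does not pair these 2 ages, the ratio of P32 to E18 was 1.05, 0.8, 1.75 and 1.16.

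The 7 mitochondrial mRNAs together had means of 8590 ± 8814 CPM at E18, 8689 ± 8092 at P4, 14720 ± 9550 at P10, 17100 ± 7070 at P16, 20600 ± 9113 at P20, 22950 ± 8211 at P27 and 17110 ± 5511 at P32. In column order the E18 libraries read 6463, 21600, 3348 and 2950 CPM and the P32 libraries 17860, 24560, 12180 and 13830 CPM. E18 library 4 lay above 3 of the 4 P32 libraries, so the groups overlapped, while the other E18 libraries lay below all 4 of them. Set side by side by column number, again without pairing, the ratio of P32 to E18 was 2.76, 1.14, 3.64 and 4.69. Library 4 began high and stayed between 19100 and 30510 CPM at every age. The 2 mitochondrial rRNAs, measured in what remained after ribosomal depletion, were at 12720 ± 3804 CPM at E18, 123400 ± 65960 at P20, 119700 ± 106600 at P27 and 63770 ± 27440 at P32, and the 18 tRNAs listed in all 28 libraries went from 56.48 ± 45.63 to 117.2 ± 24.63 CPM.

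**Figure D1:**
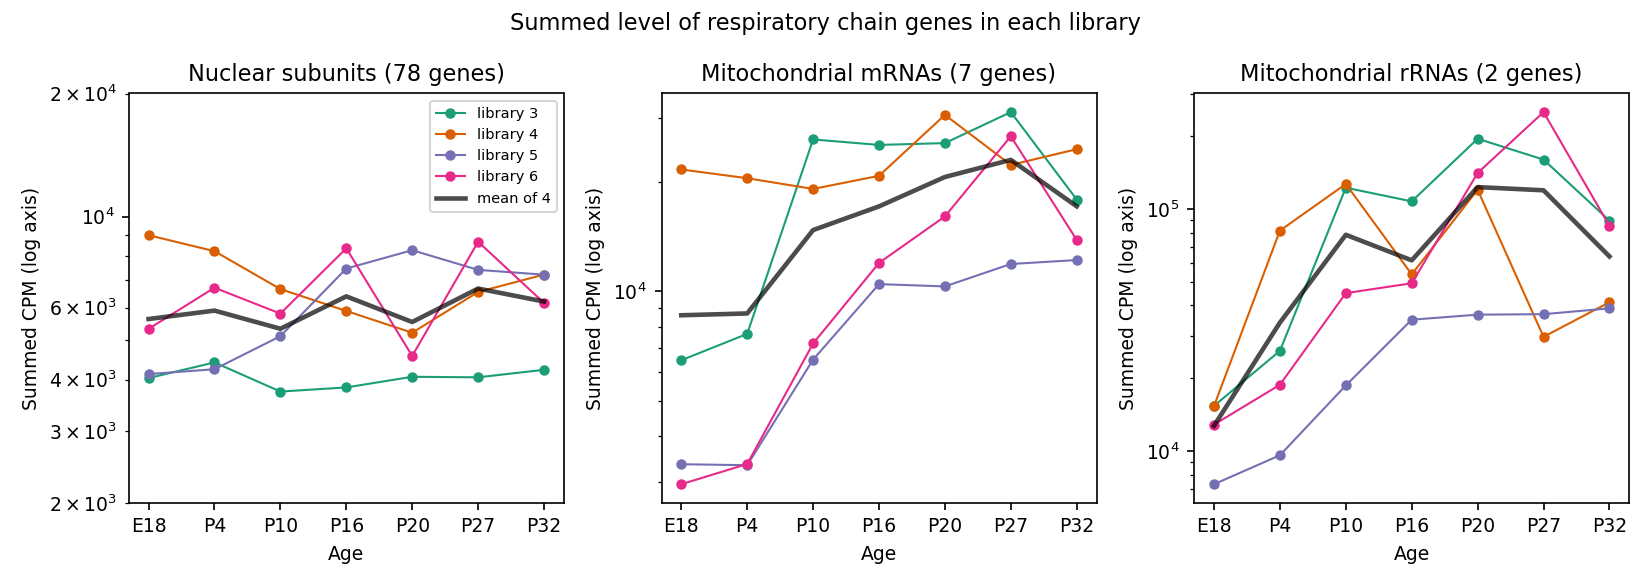
Summed CPM (log axis) of the 78 nuclear subunits, the 7 mitochondrial mRNAs and the 2 mitochondrial rRNAs against age; each coloured line joins libraries of one column number, a label that follows no animal over time, and the black line is the mean of 4. The mean of the nuclear sum stays between 5326 and 6676 CPM while that of the mitochondrial mRNAs goes from 8590 CPM at E18 to 22950 CPM at P27, with library 4 at 19100 CPM or more at every age.

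The ratio of summed mitochondrial mRNA to summed nuclear subunit CPM averaged 1.341 ± 0.833 at E18, 1.375 ± 0.907 at P4, 3.091 ± 2.705 at P10, 3.236 ± 2.448 at P16, 4.224 ± 2.33 at P20, 3.932 ± 2.607 at P27 and 2.89 ± 1.141 at P32. Its spread followed the column number as well as age. Libraries numbered 5 stayed between 0.78 and 1.69 at all 7 ages, those numbered 6 between 0.5 and 3.51, those numbered 4 between 2.4 and 5.86 and those numbered 3 between 1.6 and 7.66.

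At P32 against E18, in 1 edgeR quasi-likelihood fit of all 28 libraries with Benjamini-Hochberg adjustment over all genes tested, 15 of 114 members tested passed an adjusted p of 0.05, 11 higher and 4 lower at P32. Over all 19989 genes tested 47.5% passed, 23.4% higher and 24.1% lower, so the members passed less often than genes in general, a difference that was not itself tested. The median log2 fold change was 0.02 over the 88 nuclear members tested (4 higher, 4 lower), 1.01 over the 26 mitochondrially encoded members (7 higher, none lower) and -0.04 over all genes. Of the 26, 17 were tRNAs and 2 were rRNAs, and the median of the 7 mRNAs alone was 0.63. The share of the 26 called higher was near the 23.4% of all genes. All 26 mitochondrial differences lay above 0 with this scaling, 25 with DESeq2 size factors and 23 with scaling to the total count alone. Total-count scaling moved the median of all genes from -0.037 to -0.284, and 9 members were then higher and 10 lower (3 and 10 of the nuclear, 6 and 0 of the mitochondrial ones). Of all genes 49.5% passed under that scaling, 3507 higher and 6385 lower. The log2 difference of mt-Nd6, at 0.04, was -0.18 under it (adjusted p = 0.87).

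By complex, 2 of 34 complex I subunits rose and none fell (median log2 fold change 0.03), 1 of 4 complex II subunits rose (median -0.41), none of 8 complex III subunits passed (median 0.09), 1 of 16 complex IV subunits tested rose and 1 fell (median 0.12), and 1 of 15 complex V subunits fell (median -0.10). Among the 7 assembly factors of complex I 1 fell (median -0.07), and among the 4 related genes 1 fell (median -0.01). For complex III edgeR called none, and 1 of its 8 genes had an unadjusted p under 0.05, beside 10685 of all 19989 genes tested. Of the mitochondrially encoded members, 1 of 7 mRNAs (median 0.63), 1 of 2 rRNAs (median 2.13) and 5 of 17 tRNAs tested (median 1.17) rose.

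**Figure D2:**
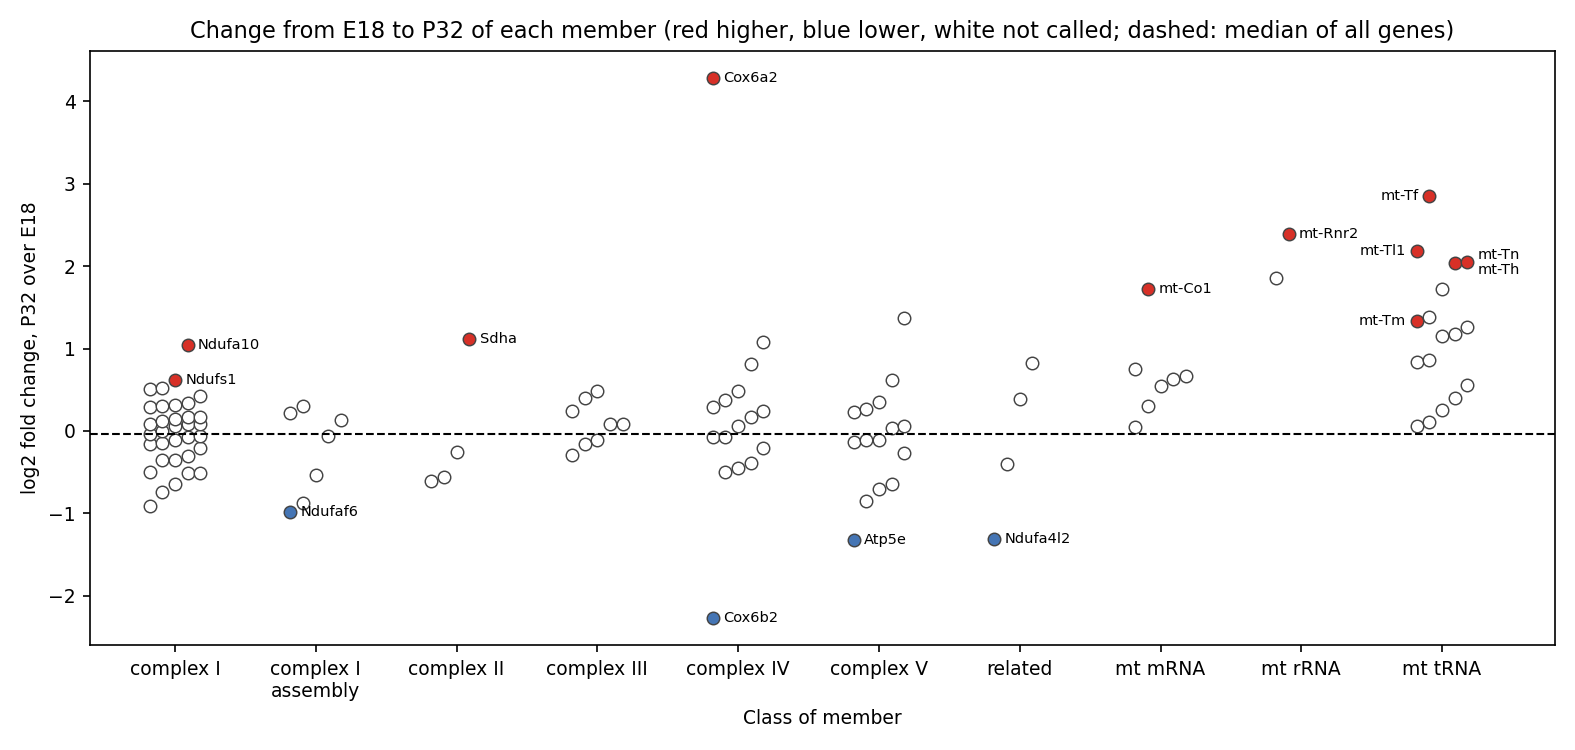
The log2 fold change of each of the 114 members tested, P32 over E18, by class; red points were called higher, blue points lower and white points not called at an adjusted p of 0.05, and the dashed line is the median of all genes (-0.04). Nuclear classes other than complex II (median -0.41) have medians between -0.10 and 0.12, near that line, with a few members apart from them, of which Cox6a2 at 4.29 and Cox6b2 at -2.28 lie farthest, while the 26 mitochondrially encoded members lie above 0 (25 with DESeq2 size factors and 23 with total-count scaling).

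Complex II, succinate dehydrogenase, links the tricarboxylic acid cycle to the chain and is wholly nuclear encoded. Sdha, its flavoprotein subunit (chromosome 13, 74322255 to 74350240 in mm10), read 113, 157, 116.6 and 108 CPM in E18 libraries 3 to 6, and 245.2, 303.7, 309.1 and 245.1 CPM in the P32 libraries. All P32 libraries lay above all E18 libraries, as did all libraries of P16, where the lowest was 173.5 CPM. The log2 fold change was 1.12 (SE 0.19, edgeR adjusted p = 2.73e-05), a 2.17-fold rise.

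Sdhb, the iron-sulfur subunit that takes electrons from Sdha, read 73.2, 139.7, 88.1 and 122.7 CPM at E18 and 52.3, 73.7, 92.9 and 78.2 CPM at P32. Its groups overlapped, and the log2 difference of -0.56 (SE 0.28) did not pass (edgeR adjusted p = 0.103), although it did with total-count scaling (-0.81, adjusted p = 0.0151). Sdhc and Sdhd, which anchor the enzyme in the membrane, had log2 differences of -0.61 (adjusted p = 0.0631) and -0.26 (adjusted p = 0.535) by edgeR. Sdha was the only complex II gene that rose under any of the 3 scalings, and of the other genes 1 fell with DESeq2 size factors and 2 with total-count scaling.

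Because both genes come from the same library, the ratio of Sdha to Sdhb in CPM per kilobase does not depend on the scaling between libraries. It was 0.459 ± 0.107 at E18 (0.332 to 0.582), 0.564 ± 0.113 at P4, 0.908 ± 0.111 at P10, 1.29 ± 0.107 at P16, 1.43 ± 0.242 at P20, 1.36 ± 0.177 at P27 and 1.44 ± 0.272 at P32 (1.18 to 1.77). The libraries of P10 (0.755 to 1.02) lay above all those of E18 and P4, and those of P16 and later (1.08 or more) lay above all of P10. Sdha to Sdhc went from 0.577 ± 0.139 to 1.81 ± 0.242 and Sdha to Sdhd from 0.924 ± 0.202 to 2.27 ± 0.355 between E18 and P32. Sdhb to Sdhc stayed at 1.27 ± 0.238 and 1.27 ± 0.122 at those ages, within 0.977 to 1.58 in all 28 libraries. Sdha is the longest of these genes, at 2859 bases against 1078, 1253 and 1285 for Sdhb, Sdhc and Sdhd. The part of gene length in these ratios was not tested.

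**Figure D3:**
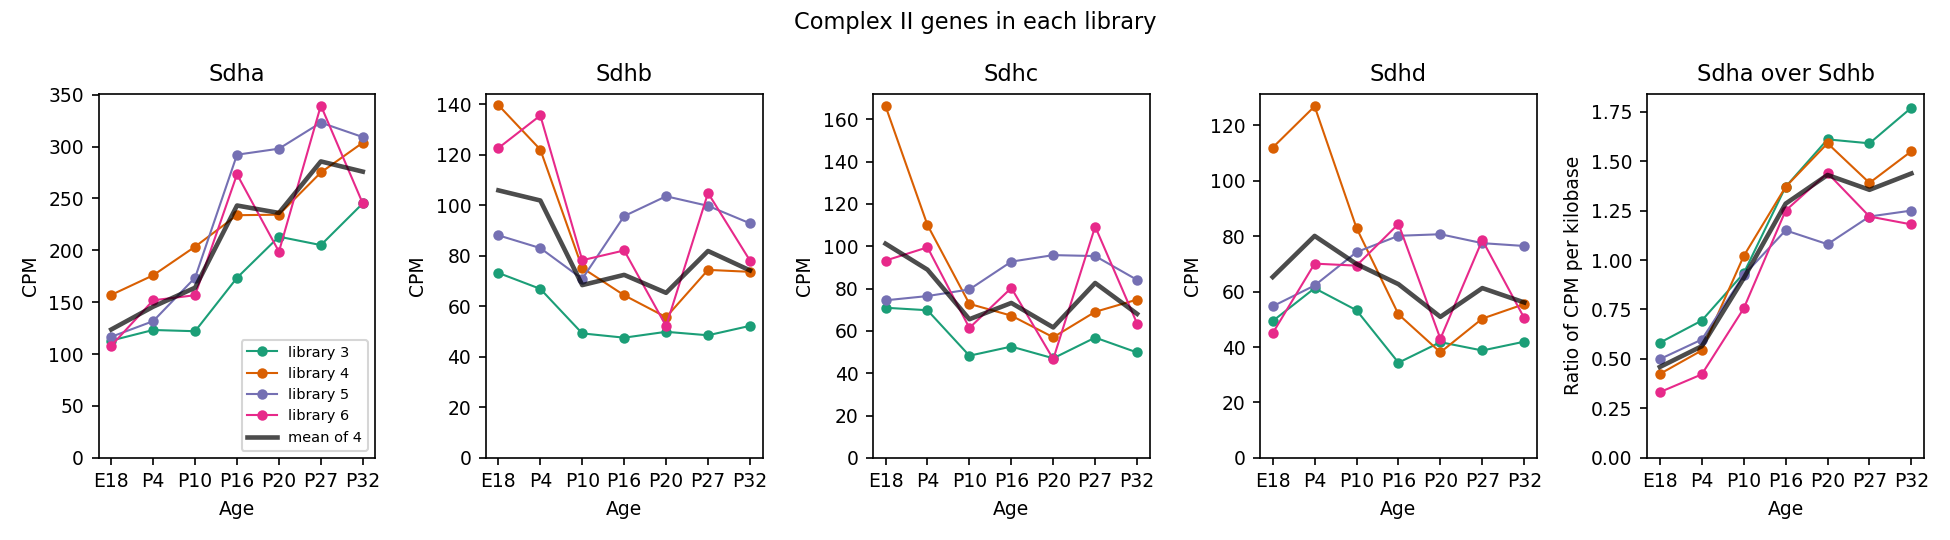
CPM of the 4 complex II genes, and the ratio of Sdha to Sdhb in CPM per kilobase, against age; coloured lines join libraries of one column number and the black line is the mean of 4. Sdha goes from 108 to 157 CPM at E18 to 245 to 309 CPM at P32, and the ratio goes from at most 0.582 at E18 to at least 1.18 at P32 in every library.

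In complex I, the NADH dehydrogenase, 2 subunits rose from E18 to P32. Ndufa10, an accessory subunit (chromosome 1, 92439708 to 92473758), read 45.5, 91.5, 44.1 and 32.9 CPM at E18 and 61.2, 141, 145.7 and 104.2 CPM at P32. E18 library 4 lay above P32 library 3, so the groups overlapped, and the log2 fold change was 1.04 (SE 0.33, edgeR adjusted p = 0.0105).

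Ndufs1, the largest iron-sulfur subunit of the electron input module, read 80.0, 113.7, 84.6 and 110.3 CPM at E18 and 108.1, 152.2, 189.3 and 168 CPM at P32. Only P32 library 3 lay within the E18 range. The log2 fold change was 0.62 (SE 0.23, edgeR adjusted p = 0.0254), and with total-count scaling it was 0.37 and did not pass (adjusted p = 0.183), nor did it without E18 library 3, E18 library 5 or P32 library 5 (0.54 to 0.58, adjusted p from 0.0552 to 0.0779). Ndufv1, the flavin-binding subunit beside it, had a log2 difference of 0.29 that did not pass (edgeR adjusted p = 0.349), and the ratio of Ndufs1 to Ndufv1 per kilobase was 0.549 ± 0.1 at E18 and 0.665 ± 0.1 at P32, overlapping.

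Complex I has 7 nuclear core subunits, shared with bacteria, and accessory subunits added in eukaryotes. The median log2 difference of the 7 core genes was 0.43, with 6 above 0 and values from -0.08 to 0.62, and that of the 27 accessory genes was -0.06, with 11 above 0 and values from -0.91 to 1.04. From P10 to P16 all 7 core genes and 25 of 27 accessory genes lay above 0, with medians of 0.30 and 0.22. The median of all genes was 0. No complex I gene passed in edgeR, where 11.9% of all genes did. An unadjusted p under 0.05 was found for 1 complex I gene, beside 4322 of all 17474 genes tested. From P16 to P20 only 1 of 7 and 3 of 27 lay above 0 (medians -0.16 and -0.16). From P20 to P27 all 7 and all 27 did (medians 0.23 and 0.40), with no gene called at either step. These genes share their libraries and are not replicates, and the libraries did not move together. At P10, P16, P20 and P27 summed complex I was 954.8, 1049, 1050 and 1096 CPM in libraries numbered 3. It was 1745, 1547, 1402 and 1845 CPM in those numbered 4. Those numbered 5 were at 1264, 1926, 2142 and 1943 CPM, and those numbered 6 at 1502, 2065, 1207 and 2444 CPM. Ndufaf6, an assembly factor of the complex (chromosome 4, 11050992 to 11076234), read 6.80, 11.4, 7.20 and 9.88 CPM at E18 and 4.00, 4.94, 6.32 and 3.12 CPM at P32. The groups did not overlap, and Ndufaf6 fell by 0.98 on the log2 scale (SE 0.25, edgeR adjusted p = 0.00203).

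Complex III, ubiquinol-cytochrome c reductase, had no nuclear subunit past the threshold. Uqcrc1, a core subunit, was at 124 ± 36.0 CPM at E18 and 178.4 ± 18.9 CPM at P32, a log2 difference of 0.48 (edgeR adjusted p = 0.0697). Uqcrfs1, the Rieske iron-sulfur protein that carries electrons towards cytochrome c, was at 101.8 ± 37.6 and 97.2 ± 19.7 CPM, a log2 difference of -0.11 (edgeR adjusted p = 0.747).

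Complex IV, cytochrome c oxidase, has several subunits with a second, tissue-restricted gene, and the calls fell on such genes. Cox6a2, the isoform of subunit VIa best known from heart and skeletal muscle (chromosome 7, 128205435 to 128206366), read 0.434, 0.480, 0.224 and 0.148 CPM at E18, 1.97, 3.93, 1.15 and 2.84 CPM at P4, 4.95, 10.8, 2.92 and 6.27 CPM at P10, and 1.64, 13.4, 4.29 and 7.11 CPM at P32. Every library from P4 on lay above every E18 library. Cox6a2 rose 19.5-fold from E18 to P32, a log2 fold change of 4.29 (SE 0.65, edgeR adjusted p = 4.18e-06). In E18 libraries 3 to 6, 3 reads correspond to 0.083, 0.1425, 0.1727 and 0.1062 CPM. The size of the fold change therefore rests on few E18 reads.

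Cox6a1, the widely expressed isoform, was at 146.6 ± 90 CPM at E18 and 106.5 ± 46.1 CPM at P32, a log2 difference of -0.49 that did not pass (edgeR adjusted p = 0.451). Cox6a2 made up 0.239% ± 0.167 of the CPM per kilobase of the pair at E18, 1.65% ± 0.427 at P4, 4.76% ± 1.62 at P10, 6.37% ± 1.38 at P16 and 4.25% ± 1.61 at P32. Its share at E18 (0.059% to 0.443%) lay below that of every later library, and Cox6a1 remained the main gene of the pair in all 28 libraries.

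Cox6b2, the isoform of subunit VIb known from testis (chromosome 7, 4751792 to 4753094), moved the other way. It read 2.48, 5.20, 3.40 and 2.84 CPM at E18 and 0.841, 0.618, 0.753 and 0.717 CPM at P32. The groups were apart, and it fell by 2.28 on the log2 scale (SE 0.45, edgeR adjusted p = 0.000132). P27 library 6 was at 5.249 CPM, above every other library of any age. Cox6b1, the common isoform, was at 147.9 ± 54.7 and 111.6 ± 27.5 CPM (log2 difference -0.45, adjusted p = 0.246).

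The other isoform sets of complex IV had no member past the threshold from E18 to P32. Cox4i1 was at 218.3 ± 114.5 CPM at E18 and 272.7 ± 77.8 at P32, and Cox4i2, its low-oxygen and lung form, at 0.945 ± 0.72 and 1.35 ± 0.758 CPM. Cox7a1, a muscle form, was at 0.702 ± 0.267 and 1.55 ± 0.224 CPM (log2 difference 1.08, edgeR adjusted p = 0.0859), and Cox7a2 at 80.5 ± 48.6 and 78.3 ± 26.3 CPM. Cox7a2l, which helps complexes III and IV join, had a log2 difference of -0.40 (adjusted p = 0.266).

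Cox7b was at 50.9 ± 34.6 and 91.6 ± 28.3 CPM with a log2 difference of 0.81 just short of the threshold (edgeR adjusted p = 0.0535), and Cox7b2 stayed below 1 CPM on average at every age. Cox8a was at 115.6 ± 51.6 and 153.8 ± 46.3 CPM, and Cox8b, a muscle form, had 87 reads in all 28 libraries together. Cox5a, a subunit with no second gene in the set, had a log2 difference of -0.07 (adjusted p = 0.87), and Ndufa4 one of 0.25 (adjusted p = 0.667). Ndufa4l2, a low-oxygen relative of Ndufa4 (chromosome 10, 127509304 to 127517154), read 2.34, 5.68, 2.46 and 4.05 CPM at E18 and 1.18, 1.79, 0.979 and 2.05 CPM at P32, without overlap. It fell by 1.31 on the log2 scale (SE 0.47, edgeR adjusted p = 0.0222), and the call was lost on leaving out library 4 or 6 of E18 or library 3 or 5 of P32 (-1.24 to -1.03, adjusted p from 0.0502 to 0.0925).

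**Figure D4:**
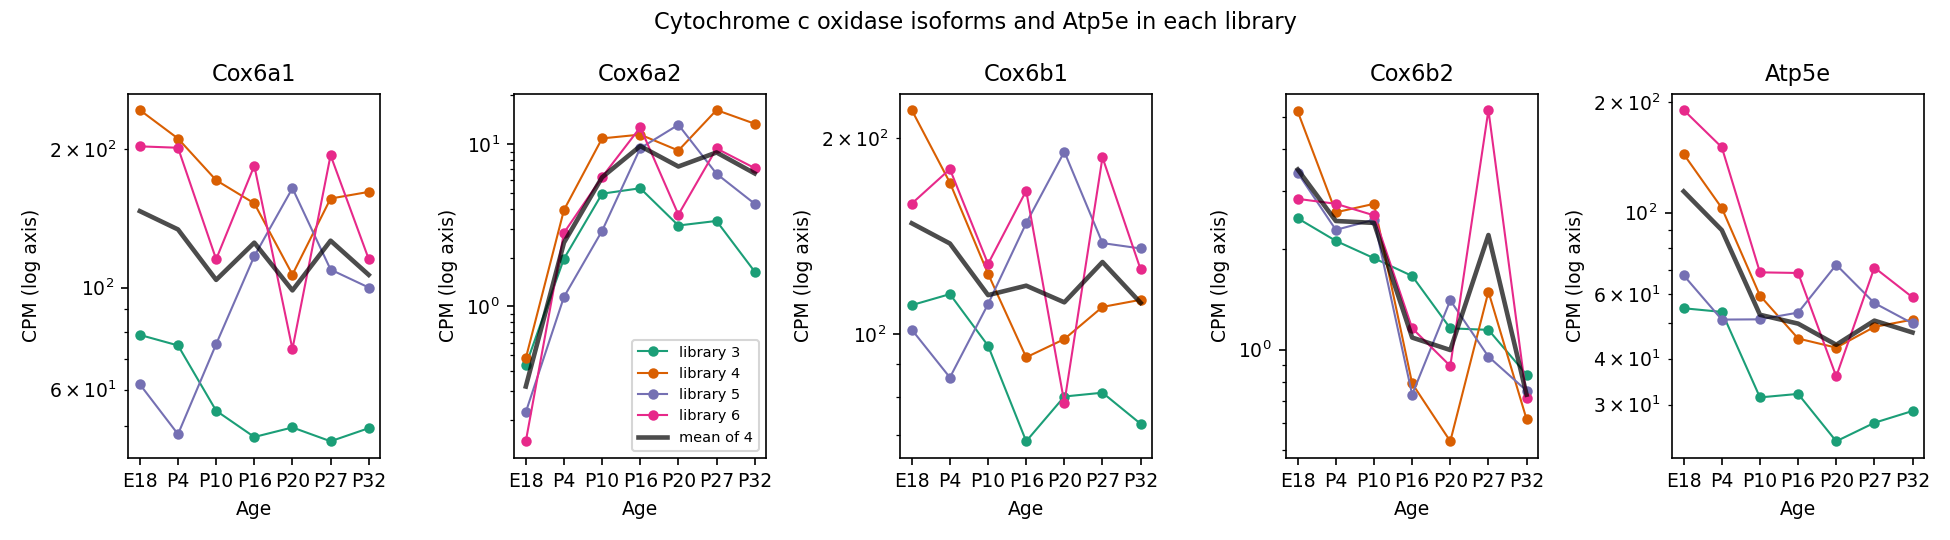
CPM (log axis) of the complex IV isoform pairs Cox6a1 and Cox6a2 and Cox6b1 and Cox6b2, and of Atp5e, against age; coloured lines join libraries of one column number and the black line is the mean of 4. Cox6a2 goes from 0.148 to 0.480 CPM at E18 to 1.64 to 13.4 CPM at P32, Cox6b2 goes to 0.618 to 0.841 CPM at P32 with P27 library 6 at 5.249 CPM, and Cox6a1 and Cox6b1 spread widely at each age.

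Complex V held the nuclear member with the highest level per length, Atp5b, its catalytic beta subunit, which averaged 447.5 CPM per kilobase over the 28 libraries. Next came the complex IV genes Cox4i1 at 311.4 and Cox8a at 271.6, then Atp5a1, the alpha subunit of complex V, at 256.5, and Cox6b1 at 246.5 and Cox6a1 at 225.4 CPM per kilobase. Neither Atp5a1 (log2 difference 0.27, edgeR adjusted p = 0.401) nor Atp5b (0.35, adjusted p = 0.342) passed between E18 and P32, and their ratio per kilobase stayed between 0.481 and 0.677 in all 28 libraries.

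Atp5e, the small epsilon subunit of the central stalk (chromosome 2, 174461075 to 174464101), read 54.9, 144.5, 67.5 and 190.5 CPM at E18 and 28.8, 51.1, 49.9 and 58.8 CPM at P32. E18 library 3 lay below P32 library 6, and the other E18 libraries lay above all of P32. Atp5e fell by 1.32 on the log2 scale (SE 0.39, edgeR adjusted p = 0.00698), and without E18 library 6 the difference of -0.95 did not pass (adjusted p = 0.0569). Its ratio to Atp5d, the delta subunit of the same stalk, went from 2.88 ± 1.2 at E18 (2 to 4.65) to 1.8 ± 0.543 at P4, 1.08 ± 0.192 at P10 and 1 ± 0.157 at P32 (0.853 to 1.22), so that all libraries of P10 and later lay below all of E18 and P4. Of the 3 genes for the ring subunit c, Atp5g3 was highest at 152.4 ± 55.6 CPM at E18 and 143 ± 12.6 at P32, Atp5g1 was at 10.4 ± 3.46 and 10.9 ± 4.45, and Atp5g2 averaged below 1 CPM at both ages, with none past the threshold. Of their 50-base words 38.3% (Atp5g2), 11.1% (Atp5g1) and 0% (Atp5g3) also occur in another annotated gene. This ranking therefore depends on the treatment of reads with several matches.

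Of the 7 mitochondrial mRNAs, mt-Co1, which encodes the catalytic subunit of complex IV, was the only one past the threshold from E18 to P32. It read 2387, 4122, 1475 and 629.4 CPM at E18 and 8867, 6434, 7318 and 6506 CPM at P32. All P32 libraries lay above all E18 libraries, and the log2 fold change was 1.72 (SE 0.48, edgeR adjusted p = 0.00405). A share of 51.1% of its 50-base words also occurs in other annotated GENCODE transcripts (62.2% for mt-Nd4), so its counts depend on the treatment of reads with several matches, which no source used here gives.

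The others had wider spread within an age. mt-Cytb, the complex III subunit cytochrome b, read 1276, 5316, 712.3 and 315.8 CPM at E18 and 2985, 5559, 1974 and 2433 CPM at P32, overlapping through library 4 (log2 difference 0.75, SE 0.70, edgeR adjusted p = 0.397). The complex I genes mt-Nd1, mt-Nd2, mt-Nd4, mt-Nd5 and mt-Nd6 had log2 differences of 0.64, 0.30, 0.67, 0.54 and 0.04, with standard errors of 0.57 to 1.19 and adjusted p of 0.459 or more. Without E18 library 4, the highest of its age, mt-Cytb and mt-Nd1 passed with log2 fold changes of 2.02 and 2.02 (edgeR adjusted p = 0.0219 and 0.0366). Per kilobase over the 28 libraries mt-Co1 averaged 3750 CPM, mt-Cytb 2649, mt-Nd1 2587, mt-Nd5 1137, mt-Nd2 1135, mt-Nd6 657.4 and mt-Nd4 570.6 CPM, so each lay above the highest nuclear member.

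mt-Rnr2, the large mitochondrial rRNA, read 13270, 7395, 6450 and 11160 CPM at E18 and 78190, 21910, 34520 and 73970 CPM at P32, without overlap. Its log2 fold change was 2.39 (SE 0.71, edgeR adjusted p = 0.00683). mt-Rnr1, the small rRNA, read 2108, 7949, 845.8 and 1716 CPM at E18 and 11460, 19330, 4394 and 11330 CPM at P32. E18 library 4 lay above P32 library 5, and the log2 difference of 1.86 (SE 0.98) did not pass (adjusted p = 0.119), while without E18 library 4 it was 2.85 and passed (adjusted p = 0.0379) and in a fit of only the 8 libraries of these ages it was 1.88 (adjusted p = 0.0275).

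The tRNAs that rose were mt-Tf (log2 fold change 2.85), mt-Tl1 (2.19), mt-Tn (2.05), mt-Th (2.04) and mt-Tm (1.33), with edgeR adjusted p from 0.0155 to 0.0384. Their depth differed: over all 28 libraries mt-Tl1 had 8461 reads, mt-Th 2583, mt-Tm 2452, mt-Tn 363 and mt-Tf 340, and in libraries numbered 4 mt-Tf was at 0.0437 CPM at E18 and 0.0618 CPM at P32. Each of the 5 lost its call when some 1 library was left out, and mt-Tf was at 1.32 without P32 library 6 (adjusted p = 0.274).

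The make-up of the mitochondrial reads followed the column number at every age. The ratio of mt-Rnr2 to mt-Rnr1 per kilobase was 0.562 to 1.22 in the 7 libraries numbered 4, and 3.51 to 5.46 in the other libraries, except P27 library 6 at 1.66. mt-Co1 made up 19.1% to 26.2% of the summed mitochondrial mRNA in libraries numbered 4, 36.5% to 49.6% in those numbered 3, 44.1% to 60.1% in those numbered 5 and 21.3% to 47% in those numbered 6. mt-Nd2 made up 11.9% to 15.1% in libraries numbered 4 and 1.26% to 6.83% in the others. Within each column number mt-Co1 had a higher share at P32 than at E18.

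**Figure D5:**
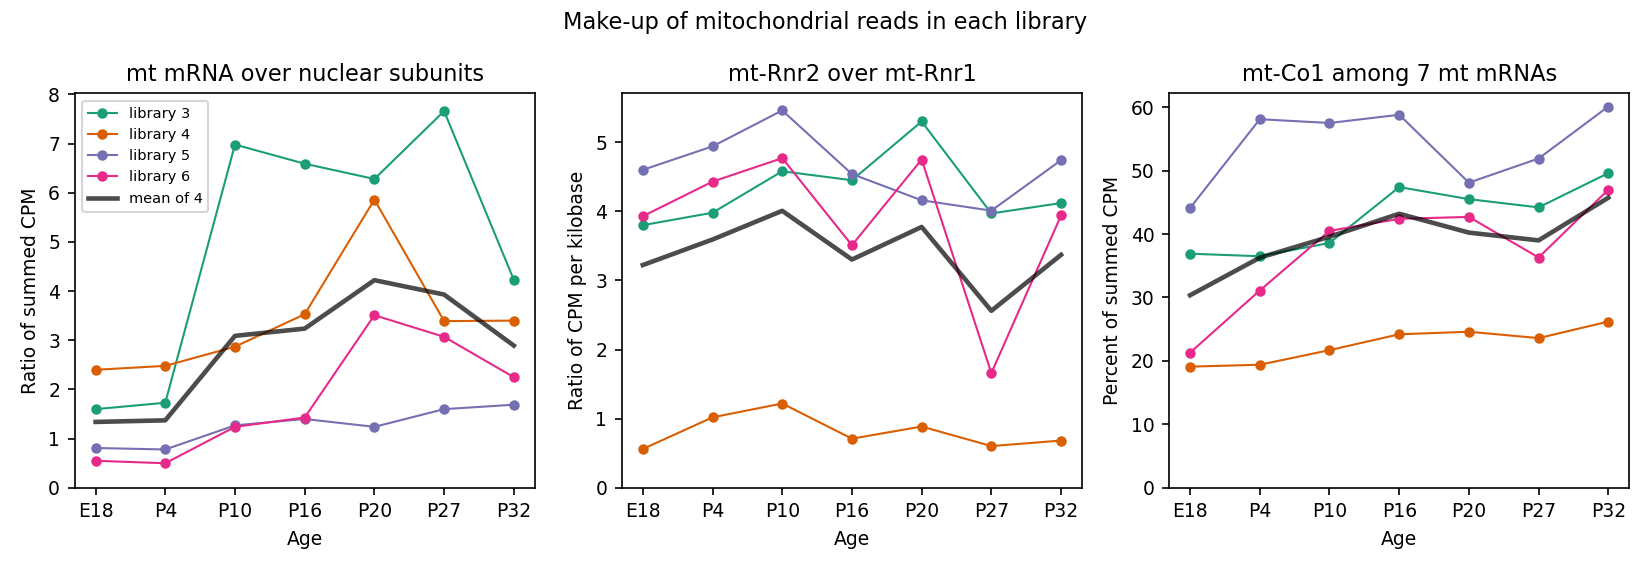
Ratio of summed mitochondrial mRNA to nuclear subunit CPM, ratio of mt-Rnr2 to mt-Rnr1 in CPM per kilobase, and percent of summed mitochondrial mRNA CPM from mt-Co1, against age; coloured lines join libraries of one column number and the black line is the mean of 4. Libraries numbered 4 keep the lowest rRNA ratio (0.562 to 1.22) at all ages, and those numbered 5 stay at 0.78 to 1.69 in the mitochondrial to nuclear ratio.

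Between adjacent ages, where each comparison shares 4 libraries with the next, few members passed. From E18 to P4 Cox6a2 alone of 109 members tested passed (7.87% of all genes passed, 4.75% higher and 3.12% lower), with a log2 fold change of 2.90 (SE 0.50, edgeR adjusted p = 0.00529). The labels give no pairing of mice across ages, and same-numbered libraries were taken as pairs from correlations in these same counts. With the column number as a block, 14 members were higher and 6 lower, against 29.4% of all genes. Cox6a2 then had a log2 fold change of 2.89 (edgeR adjusted p = 0.000287). Both rRNAs were higher in that fit, mt-Rnr2 with a log2 fold change of 1.08 (adjusted p = 0.0325) and mt-Rnr1 with 0.80 (adjusted p = 0.0263), as were 7 tRNAs and, among nuclear subunits, Ndufs1, Sdhd, Uqcrc1 and Atp5d at 0.26 to 0.34. Another 2 tRNAs were lower, mt-Ti by a log2 fold change of -1.38 and mt-Tq by -1.32 (adjusted p = 0.00327 and 0.00376). None of the 7 mitochondrial mRNAs passed there. Atp5e fell by 0.33 and Atp5h, a stator subunit of complex V, by 0.31.

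From P4 to P10, where 18.4% of all genes passed (10.3% higher and 8.16% lower), no member of 109 tested passed in edgeR. An unadjusted p under 0.05 was found for 11 members, beside 5767 of all 17717 genes tested. DESeq2 called 1 member, against 23.7% of all genes. In edgeR Cox6a2 was nearest to the threshold, with a log2 difference of 1.34 (adjusted p = 0.0507). The column number was used as a block here too, on the ground of correlations in these same counts and not of any label. P4 library 5 correlated at 0.315 with P10 library 5 and at up to 0.34 with another P10 library. With that block 14 members were higher and 8 lower against 36.2% of all genes. There 6 of the 7 mitochondrial mRNAs rose together: mt-Co1 by a log2 fold change of 1.10 (adjusted p = 0.00621), mt-Nd2 by 1.11, mt-Cytb by 1.06, mt-Nd4 by 1.05, mt-Nd1 by 0.93 and mt-Nd5 by 0.76, while mt-Nd6 did not pass. mt-Rnr2 rose by 1.31 and mt-Rnr1 by 1.14 (adjusted p = 0.00171 and 0.00326).

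That rise was not even across columns. The summed mitochondrial mRNA at P10 was 3.42, 0.93, 1.95 and 2.14 times that at P4 in libraries 3, 4, 5 and 6. Without P4 library 4 and with no block, 9 of 110 members tested passed, all higher and 6 of them mitochondrial. Of all genes 16.8% passed in that fit, 1726 higher and 1343 lower. The 8 members that fell under the block were nuclear genes of complexes I, II and V and the related Atp5sl, among them Atp5e by 0.67 (adjusted p = 0.0072), Ndufb7 by 0.61, Sdhb by 0.53 (adjusted p = 0.00395) and Sdhc by 0.44, and Cox6a2 rose by 1.32 (adjusted p = 0.00108).

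From P10 to P16 no member of 108 tested passed in edgeR, where 11.9% of all genes did (6.2% higher and 5.65% lower). An unadjusted p under 0.05 was found for 4 members, beside 4322 of all 17474 genes tested. DESeq2 called 2 members, against 16.5% of all genes. The nuclear members had a median log2 difference of 0.17, with 70 of 85 tested above 0, beside a median of 0 over all genes. These members share their libraries and are not replicates. The nuclear subunits of complexes I to V summed to 3740, 6656, 5107 and 5798 CPM at P10 in column order. At P16 the sums were 3828, 5885, 7471 and 8372 CPM, so library 4 went down. From P16 to P20, P20 to P27 and P27 to P32 edgeR called no member, and 0% of all genes passed in each of these comparisons. DESeq2 called no member in any of the 3, and 0, 0 and 1 members had an unadjusted p under 0.05, beside 485, 476 and 73 genes in all.

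Over all 7 ages at once, 10 members differed between some ages in the edgeR test of all age terms, where 51% of all genes did. They were Ndufa10, Ndufaf6, Sdha, Cox6a2, Cox6b2, Atp5e, Atp5l, mt-Co1, mt-Rnr2 and mt-Tm, with adjusted p from 1.21e-05 for Sdha to 0.0187 for Atp5l. Atp5l, subunit g of complex V, was low throughout and its highest library was P27 library 6, at 4.924 CPM against 1.689 CPM or less in the others.

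Genes of the chain outside the symbol rule, and 4 related lists, were counted the same way from E18 to P32, beside 47.5% of all genes called, 23.4% higher and 24.1% lower. Among 36 further subunits, carriers and assembly factors 4 rose and 3 fell (median log2 difference -0.04). They included Cycs, the electron carrier cytochrome c, at 0.90 (edgeR adjusted p = 0.00715), Ttc19, a complex III assembly factor, at 1.51 (adjusted p = 1.11e-06), and Atpaf1, a complex V assembly factor, at 1.96 (adjusted p = 4.51e-06), while Atpif1, the ATP synthase inhibitor, fell by 1.43 (adjusted p = 0.0493).

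Of 16 genes of the tricarboxylic acid cycle and pyruvate dehydrogenase 8 rose and none fell (median 0.57), and all 16 lay above 0. With total-count scaling 7 rose and 12 of 16 lay above 0. The share called in either direction was near that of all genes, of which 23.4% rose and 24.1% fell. The difference in direction was not tested. Those that rose included Idh3a at 1.39, Dlat at 1.30 and Ogdh at 1.22. Citrate synthase (Cs) had a log2 difference of 0.13 (edgeR adjusted p = 0.473). Of 77 mitochondrial ribosomal protein genes 2 rose and 13 fell (median -0.41), and with total-count scaling 1 rose and 36 fell. Of 10 carriers and outer membrane genes 1 rose and 2 fell (median 0.16).

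Of 18 regulators of mitochondrial genes 5 rose and 4 fell, a share near that of all genes. The coactivators Ppargc1a and Ppargc1b rose by log2 fold changes of 1.90 (adjusted p = 2.29e-07) and 2.14 (adjusted p = 5.46e-11), as did Esrra, Polrmt and Polg. Nrf1, Gabpb1, Pprc1 and Tfam, the packaging factor of mitochondrial DNA, fell by 0.73, 0.85, 0.65 and 0.73 on the log2 scale, with adjusted p from 0.000387 to 0.00942 by edgeR.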

How the data were processed

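Per the labels' protocols, RNA of the microdissected nucleus was depleted of ribosomal RNA and sequenced on a NextSeq 500, with 4 mice per age handled as 4 separate samples. The values are read counts per gene in 12 deposited tables of adjacent ages, which the authors split into higher and lower genes, and the up and down tables were merged by gene ID. BWA, edgeR 3.14.0 and the builds GRCm38 and mm10 appear in the submitters' processing notes. The handling of strand and of reads that match several genes is not stated there. A gene was listed in a comparison from 4 summed counts over its 8 libraries. Another 96 columns of per-sample density were not used.

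From the counts, edgeR 4.0.16 in R 4.3.3 was run with filterByExpr, trimmed mean of M values (TMM) scaling and the two-sided quasi-likelihood test, without a block, on the 8 libraries of each adjacent pair and, for P32 against E18 and for any age difference, on the 22706 genes listed in all 28 libraries. Benjamini-Hochberg adjustment ran over all genes tested, and an adjusted p under 0.05 was called. DESeq2 1.42.0 was an alternative, as were other scalings, no low-count filter, mitochondrial genes left out, each library left out in turn and the column number as a block. The test was also run on simulated counts of independent genes with the same dispersion and no effect of column number. That run does not cover the differences between libraries seen in these data. Samples are separate mice, and no pair of libraries of the same age agreed within counting noise. Pairs across ages were not compared in this way. Values of named genes carry counting error that grows as counts fall. A count of 3 reads corresponds to 0.083 CPM in E18 library 3 and to 0.0746 to 0.3647 CPM over all 28 libraries.

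The labels give no pairing of mice across ages. Column numbers were taken as pairs where each same-numbered pair of deviations from the age mean correlated over 0.1 in these same counts. That held for P4 with E18 (r from 0.543 to 0.837 across genes) and P10 with P4 (0.315 to 0.738). It did not hold for P32 with E18.

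Named genes were the mitochondrial mRNA and rRNA genes, the isoform sets, reference subunits of each complex, up to 4 called nuclear members per direction (largest change, mean level 5 CPM or more) and up to 2 called members per complex by adjusted p; the tRNAs called, Sdhc, Sdhd and the genes called under the block were added after their values were seen. Members and lists were chosen with earlier results of these data known. Promoter windows came from RefSeq tables of GRCm38.p6, and transcript words from GENCODE. The mitochondrial genes mt-Co2, mt-Co3, mt-Atp6, mt-Atp8, mt-Nd3 and mt-Nd4l and the nuclear gene Cox8c were not analysed here. Counts of chain genes outside the symbol rule used the same fit.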

Additional observations from a re-analysis of the deposited data

Results flagged for a closer look

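In 9 of 168 groups of 4 libraries screened, 1 library lay far from the other 3 for its age. Chance gives such a gap in about 1 in 20 groups of independent values. The groups screened share libraries and members, so that rate does not hold for them. Whether the 9 exceed chance was not tested. The share of reads on nuclear members was low in P10 library 3 (0.384%) and in P27 library 3 (0.379%). The summed complex III level was high in P20 library 5 (883.6 CPM), as was Ndufs1 in the same library (162.6 CPM). The summed level of the 4 related genes was high in P32 library 5 (105.6 CPM). Ndufa10 was high in P4 library 4 (91.49 CPM), Ndufaf6 in P20 library 6 (6.253 CPM) and mt-Co1 in P16 library 3 (11950 CPM). Cox6b2 was high in P27 library 6 (5.249 CPM), the library with the fewest genes with a read and the largest mitochondrial share.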

How the results depend on the processing

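From E18 to P4, 1 member was called, 3 with DESeq2, 20 with the column number as a block and 1 to 1 with 1 library left out. Of all genes 7.87% passed in the main fit, 12.2% with DESeq2, 29.4% with the block and 4.01% to 7.53% with 1 library left out. From P4 to P10 the count of 0 became 1 with total-count scaling, with mitochondrial genes left out, with no low-count filter and with DESeq2, 22 with the block, and 0 to 9 with 1 library left out (9 without P4 library 4, 1 without each of P4 library 3, P10 library 4 and P10 library 5). Of all genes 18.4% passed in the main fit, 17.2%, 18.7%, 13% and 23.7% in those 4 fits in turn, and 36.2% with the block. With 1 library left out it was 11.8% to 17.4% (16.8% without P4 library 4). From P10 to P16 the count of 0 became 1 with total-count scaling, 2 with DESeq2, 6 with the block, and 0 to 4 with 1 library left out (4 without P16 library 3). Of all genes 11.9% passed in the main fit, 11.7% with total-count scaling, 16.5% with DESeq2 and 19.5% with the block. Without P16 library 3 it was 13.9%. The later adjacent ages stayed at 0 members under every alternative, the block and leaving out 1 library (0 to 0) included. At most 0.0387% of all genes passed there. From E18 to P32 the 15 calls among 114 members tested became 9 of 88 tested with mitochondrial genes left out. The count was 36 with the block, 19 with total-count scaling and 11 to 21 with 1 library left out (21 without E18 library 4). Of all genes 47.5% passed in the main fit, 47.8% with mitochondrial genes left out, 54.6% with the block and 49.5% with total-count scaling. With 1 library left out it was 41.9% to 45% (41.9% without E18 library 4). Column numbers did not meet the rule for pairs for P16 with P10 (r of -0.042 for number 6) or P32 with E18 (r of 0.028 for number 5). Numbers 3, 4 and 5 correlated at 0.5, 0.438 and 0.36 for P16 with P10. Numbers 3, 4 and 6 correlated at 0.219, 0.487 and 0.28 for P32 with E18. The part of the column number in these block counts was not tested. Over 43 named members and 643 values, 596 stayed on their side of the threshold, 18 gained and 29 lost a call, and no called value reversed. Sdha, Cox6a2, Cox6b2, Ndufaf6, Ndufa10, mt-Co1 and mt-Rnr2 kept the E18 to P32 call under each alternative that tested them. Ndufs1 lost it with total-count scaling and without E18 library 3, E18 library 5 or P32 library 5, Ndufa4l2 without E18 library 4, E18 library 6, P32 library 3 or P32 library 5, and the called tRNAs in several. The causes were not tested. Depth limits the low isoforms and the rarer tRNAs, where a library held few reads.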

Other observations

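Across the 88 nuclear members tested, the log2 difference between E18 and P32 went with gene length at a Spearman rho of 0.23, and across all 19989 genes tested at 0.11; genes are not independent replicates and share libraries, so these are descriptions. From E18 to P4 the values were 0.4 over 87 nuclear members and 0.21 over 18797 genes. Of the nuclear members 38 of 89 share no 50-base word with another annotated gene. Ndufaf2 shares 64.1% of its words, Atp5o 41.6%, Atp5g2 38.3% and Cox7c 22.1%. Cox7c averaged 1.887 CPM per kilobase over the 28 libraries, although its product is a subunit of complex IV.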
